A study of Mus musculus with 10 samples.

Results

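B2m, H2-K1, H2-D1, Tap1, Tapbp, Cd74, H2-Aa, H2-Ab1 and H2-Eb1 are 9 genes of antigen presentation, taken by their symbols from the 32285 genes counted in each library and followed here through the cell populations of the old mouse inner ear. The first 5 belong to the MHC class I pathway and the other 4 to the class II pathway, and each symbol matched 1 gene in every library. The libraries are droplet (10x 3′) single-cell RNA-seq libraries of wild-type CBA/J mice aged 22 months, each made from cells pooled from 7 to 8 mice, of both sexes by the study's methods, with 5 libraries of the cochlear and 5 of the vestibular sensory epithelium. The mice carried no transgene and received no treatment beyond aging, and since all were of 1 age, none of the differences below is a change with age. Because mice were pooled, the error given below is the spread between libraries and not between single mice.

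The MHC class I pathway shows peptides made inside a cell to cytotoxic T cells. Its surface molecule is a heavy chain such as those encoded by H2-K1 and H2-D1, held by the light chain β2-microglobulin (B2m), and nearly every nucleated cell can make it. Tap1 is 1 subunit of the pump that carries peptides into the endoplasmic reticulum, and Tapbp encodes tapasin, which bridges the pump to the empty heavy chain. The class II pathway shows peptides taken up from outside to helper T cells and is mainly used by macrophages, dendritic cells and B cells. H2-Aa, H2-Ab1 and H2-Eb1 encode chains of the class II molecule, and Cd74 encodes the invariant chain, which fills the peptide groove and guides the molecule to the endosome. In the inner ear, resident macrophages lie among the supporting cells, along the nerve fibres and in the connective tissue. CBA mice carry the k form of the H2 genes, whereas the reference genome comes from C57BL/6J mice, which carry the b form. Reads of H2-K1, H2-D1 and the class II chains therefore may map less well, and reads of H2-K1, H2-D1 and the H2-Q genes, which are near copies of each other, may be shared or lost; how far this changed the counts was not tested.

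On the reference genome (GRCm38, GENCODE M21) B2m lies at 122147686 to 122153083 on the plus strand of chromosome 2. The H2 region of chromosome 17 holds Tapbp at 33915899 to 33929292 (+), H2-K1 at 33996017 to 34000347 (−), Tap1 at 34187553 to 34197225 (+), H2-Ab1 at 34257689 to 34269419 (+), H2-Aa at 34282744 to 34287823 (−), H2-Eb1 at 34305867 to 34316674 (+) and H2-D1 at 35262730 to 35267499 (+). All are protein-coding genes, and a 3′ library reads the end of their last exons. The position of Cd74 was not used here.

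Genes of both pathways share a promoter unit, the X and Y boxes, which are read by the RFX, CREB or ATF and NF-Y factors and, through them, by the co-activators NLRC5 and CIITA. Promoters were taken from RefSeq (GRCm38.p6, 250 bases before to 50 bases after each start) for 7 of the 9 genes, and H2-Ab1 and Cd74 were not searched. The letters TGACG (core of the X2 box) and ATTGG (core of the Y box) were searched on both strands, and TGACG followed by ATTGG on 1 strand, with 5 to 40 bases from start to start, was counted as a pair. The pair was present in B2m, H2-K1, H2-D1 and H2-Aa, against 0.566% of the 27025 promoters of the table, 153 in all. The 55 bases around it are shown because these letters are what the light chain, both heavy chains and a class II chain have in common upstream, with both cores in capitals, 5′ to 3′ on the gene's strand:
B2m, chr2:122147594-122147648 (+): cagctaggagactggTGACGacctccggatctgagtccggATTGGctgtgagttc
H2-K1, chr17:34000349-34000403 (−): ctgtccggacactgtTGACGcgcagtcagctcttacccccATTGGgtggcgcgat
H2-D1, chr17:35262978-35263032 (+): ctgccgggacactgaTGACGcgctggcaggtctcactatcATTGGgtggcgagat
H2-Aa, chr17:34287857-34287911 (−): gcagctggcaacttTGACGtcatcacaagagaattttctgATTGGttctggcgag
H2-Eb1, chr17:34305768-34305822 (+): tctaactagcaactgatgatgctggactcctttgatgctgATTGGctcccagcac
TGACG began 78 bases before the start in B2m, 41 before it in H2-K1, 101 before it in H2-D1 and 74 before it in H2-Aa. The H2-D1 window lies after the first base of the GENCODE gene, 35262730, so the distances given for H2-D1 hold for the RefSeq start only. H2-Eb1 held ATTGG at −59 with no TGACG in the window searched, and Tap1 and Tapbp held no pair. Alone, each core is common, since TGACG stood in 21% and ATTGG in 37.9% of all promoters. TGACG overlapped its own reverse complement in H2-Aa. The core of the interferon-stimulated response element, GAAA repeated after a gap of 2 bases, stood at −139 in B2m (GAAACTGAAA) and in 3.49% of all promoters. A shorter form, GAA and GAAA with the same gap, stood on the other strand at −90 in H2-K1 and −150 in H2-D1 and in 7.56% of all promoters. These matches are letters in a window and were not tested as binding sites.

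Replicate 2 repeated replicate 1 in both organs (1313 of 1313 cochlear and 1633 of 1641 vestibular barcodes of replicate 2, with counts that differed by less than the sampling noise), whereas other pairs of libraries shared at most 17 barcodes. It was therefore left out, so that n = 4 per organ. The libraries held 2738036 to 26974948 counted molecules (UMIs) in the cochlea and 4150642 to 24104850 in the vestibule, and 7272 cochlear and 10424 vestibular cells were kept. Replicate 3 held the most cells in both organs. Clusters were named from at least 3 enriched marker genes, and the names hair cell (HC), supporting cell, macrophage-like and so on mean cells that carry those markers. None of the 9 genes, nor of the other listed genes of both pathways and of the interferon response, was used to form the clusters. HCs carried 6 of 6 HC markers in both cochlear clusters, and the main macrophage-like cluster carried 8 of 8 markers in the cochlea and 7 of 8 in the vestibule. No cluster was named endothelial or dendritic. Doublets were not called, and clusters with the markers of HCs and supporting cells at once (72 cochlear and 273 vestibular cells) were kept apart as mixed. A level is the gene's share of all UMIs of a population in a library, scaled as CPM, from at least 5 cells, with the mean ± SD over libraries, and levels are compared between populations only, never between genes. In such sums, fewer expressing cells and less RNA per cell cannot be told apart.

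Among populations found in more than 1 library, B2m was highest in immune cells and lowest in HCs in both organs, together with neurons in the cochlea. In the cochlea it reached 2012 ± 1369 CPM in B lineage-like cells (n = 3 libraries), 1971 ± 655 in T or NK-like cells and 1548 ± 706 in macrophage-like cells (n = 4 each). These leading populations did not differ beyond their spread. Stromal-like cells stood at 403 ± 170 CPM and supporting cells at 95.3 ± 34.9, with no overlap of their libraries. Cochlear HCs (cHCs) had 9.33 ± 11.5 CPM and neuron-like cells 5.94 ± 11.9, which overlapped each other and lay below every library of the other populations, mixed cells aside.

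In the vestibule, B2m of T or NK-like cells (1682 ± 444 CPM, n = 3), melanocyte-like cells (1240 ± 622), macrophage-like cells (1192 ± 279) and B lineage-like cells (1040 ± 468) overlapped at the top. The melanocyte-like level held in every library, at 2162, 1031, 959 and 807 CPM in replicates 1, 3, 4 and 5. Stromal-like cells followed at 477 ± 169 CPM, supporting cells at 128 ± 29.0, erythroid-like cells at 63.1 ± 19.1 and vestibular HCs (vHCs) at 38.3 ± 16.4, the last of 13 populations. The libraries of erythroid-like cells (43.0 to 81.4) and vHCs (26.3 to 61.8) overlapped.

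**Figure D1:**
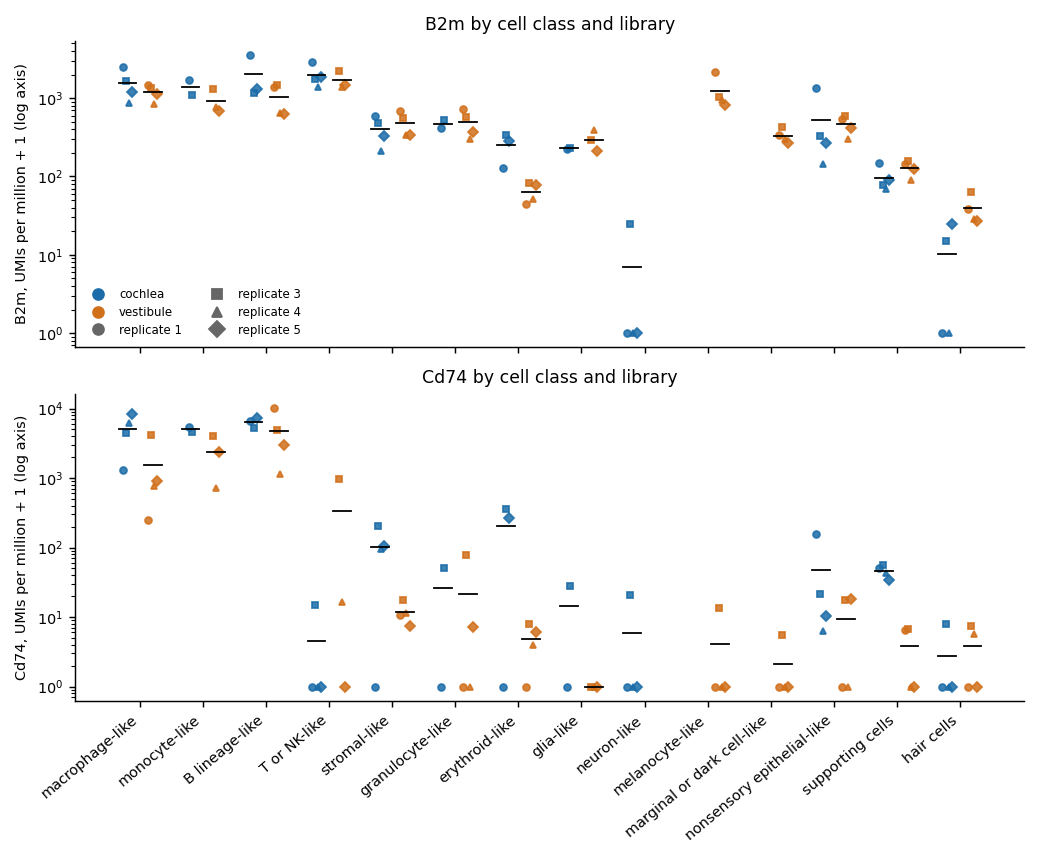
Levels of B2m (top) and Cd74 (bottom) in CPM plus 1, on log axes, in each named population, with 1 point per library, colour for the organ, shape for the replicate and a bar for the mean. B2m lies lowest in hair cells and neuron-like cells, and Cd74 is highest in macrophage-like, monocyte-like and B lineage-like cells.

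The 2 heavy chain genes had a similar order of populations. H2-K1 was 1639 ± 247 CPM in cochlear and 2010.5 ± 287 in vestibular T or NK-like cells, 957 ± 206 and 602 ± 93.5 in macrophage-like cells, 313.5 ± 109 and 193 ± 31.4 in stromal-like cells, and 14.6 ± 16.9 and 25.5 ± 7.8 in HCs. H2-D1 was 2034 ± 609 and 1584 ± 192 CPM in T or NK-like cells, 1344 ± 207 and 862 ± 71.8 in macrophage-like cells, and 33.0 ± 9.0 and 47.1 ± 13.96 in HCs. Tap1 was low throughout, at no more than 86.2 ± 89.2 CPM, in cochlear B lineage-like cells. It passed the low-count filter of a single comparison, that of stromal-like cells. Tapbp ran from 4.072 ± 3.502 CPM in vestibular erythroid-like cells to 142 ± 50.5 (n = 2) in cochlear monocyte-like cells.

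In vestibular replicate 3 alone, 240 cells of a pair of clusters with markers of nonsensory epithelium, one led by Bpifa1 and the other with Tmem212 among its leading genes, held the highest H2-K1 of any population, 4526 CPM, with 2292 CPM of B2m and 593 of Cd74. They have no replicate check and enter no comparison.

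HCs had less class I message than the supporting cells around them in both organs. In cHCs, B2m stood at 0, 13.8, 0 and 23.5 CPM in replicates 1, 3, 4 and 5, from 9 UMIs in 150 cells. In cochlear supporting cells it stood at 146, 76.3, 68.9 and 89.9 CPM. The groups did not overlap, and B2m was 8.93-fold lower in cHCs (log2 fold change −3.16 ± 0.485 (SE), adjusted p = 3.6e-05 by edgeR's quasi-likelihood test with Benjamini-Hochberg adjustment over all genes tested, n = 4 against 4). At these depths a count of 0 allowed up to 38.9 CPM in replicate 1 and 28.6 in replicate 4, each still under every supporting cell library.

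The heavy chains followed. H2-K1 was 38.9, 11.5, 0 and 7.82 CPM in cHCs against 98.4, 102.5, 98.5 and 103 in supporting cells (log2 fold change −3.25 ± 0.423, edgeR adjusted p = 5.95e-06). H2-D1 was 25.9, 46.1, 28.6 and 31.3 CPM against 143, 133, 150 and 182 (−2.25 ± 0.304, edgeR adjusted p = 9.25e-06). Tapbp was 33.4 ± 6.36 against 78.5 ± 44.0 CPM (−1.52 ± 0.409, edgeR adjusted p = 0.0055), and its supporting cell mean rests in part on replicate 1, at 144 CPM against 55.5 to 58.1 in the others.

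In the cochlea all 4 class I genes that passed the filter, and Cd74 of class II, were lower in HCs. B2m, H2-K1 and Cd74, the last with 3 UMIs in all cHCs, passed the filter through the supporting cells. Genes so low in cHCs could enter the test only where supporting cells were high, so the direction of these calls was largely set in advance. Over all 6722 genes tested, 43.2% were called in 1 direction or the other, with a median log2 difference of −0.10 against −2.70 for the 4 class I genes. Tap1, H2-Aa, H2-Ab1 and H2-Eb1 were too low to be tested. The cHC result rests on few molecules: with cells limited to less than 10% mitochondrial UMIs, 33 cHCs were left and only B2m and Cd74 were still called. It also rests on how cells were clustered. With the 9 genes and the other listed genes among the clustering genes, 2 cells of replicate 1 joined the cHCs. They had 38 and 24 UMIs of B2m, and 83 and 73 of H2-K1. The log2 difference then turned to 0.62 for B2m and 1.98 for H2-K1, neither called.

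**Figure D2:**
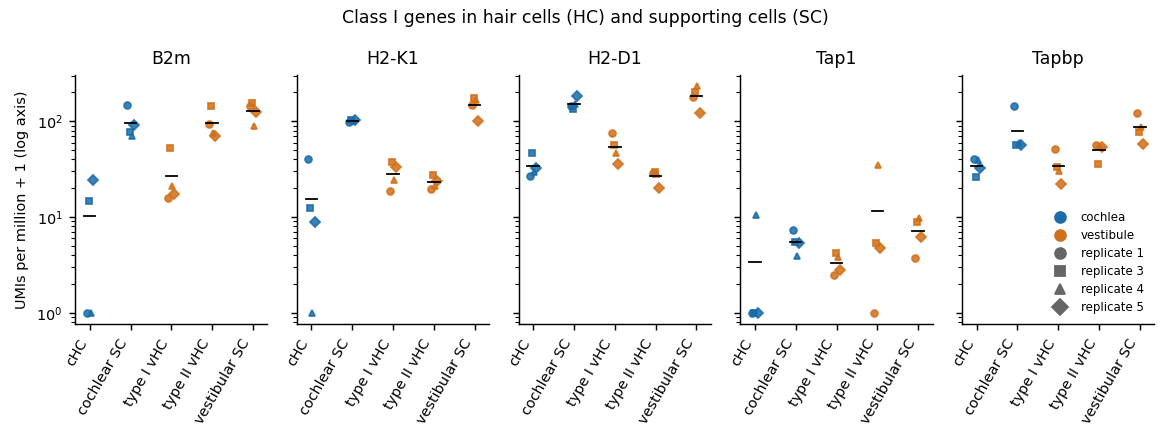
Levels of the 5 class I genes in CPM plus 1, on a log axis, in cHCs, type I and type II vHCs and the supporting cells (SC) of both organs, with 1 point per library and a bar for the mean. B2m, H2-K1, H2-D1 and Tapbp lie lower in cHCs than in cochlear supporting cells in every library, while B2m of type II vHCs (68.4 to 144) overlaps that of vestibular supporting cells (88.8 to 154).

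vHCs, of which 2003 were kept, gave the same order at greater depth. B2m was 37.6, 61.8, 27.5 and 26.3 CPM in vHCs and 145, 154, 88.8 and 125 in vestibular supporting cells, with no overlap (log2 fold change −1.84 ± 0.253, edgeR adjusted p = 1.3e-06). H2-K1 was 16.96, 34.4, 21.5 and 29.1 CPM against 147, 176, 164 and 99.0 (−2.64 ± 0.221, edgeR adjusted p = 4.3e-10). H2-D1 was 64.2, 50.9, 41.9 and 31.3 CPM against 177, 202, 233 and 120 (−2.18 ± 0.212, edgeR adjusted p = 4.99e-09). Tapbp was lower as well, 37.0 ± 12.7 against 85.2 ± 26.3 CPM (−1.44 ± 0.224, edgeR adjusted p = 6.8e-06). All 4 class I genes tested were thus lower in vHCs, against 58.3% of the 9256 genes tested that were called in either direction, with a median log2 difference of 0.07 over all genes and −2.01 over these 4. No class II gene passed the filter here. Whether the difference between HCs and supporting cells itself differed between organs was tested in a fit added after seeing the data, in which 16.6% of 9860 genes were called. The cochlear minus vestibular value was −1.32 ± 0.657 for B2m, −0.63 ± 0.565 for H2-K1, −0.07 ± 0.397 for H2-D1 and −0.11 ± 0.503 for Tapbp, and the edgeR adjusted p of these was 0.185 or above.

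At the level of cells, B2m was found in 4.67% of 150 cHCs, 13.5% of 2003 vHCs, 26.4% of 1094 cochlear and 29.6% of 550 vestibular supporting cells, at median depths of 3332, 3791, 2561.5 and 2176 UMIs. After thinning every cell to 1000 UMIs the shares became 0%, 4.99%, 7.95% and 13.3%, the first allowing up to 2.0%. Cochlear neuron-like cells had B2m in 8.36% of 299 cells (2.68% thinned), and the share in cHCs was no higher. No background share of B2m was measured, since nearly every cell type can make it, so how much of the 9 UMIs of cHCs is free RNA was not tested, and the folds of B2m in cHCs rest on them.

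Between type I and type II vHCs, B2m was called in one direction and H2-D1 in the other. B2m stood at 14.95, 51.0, 20.01 and 16.5 CPM in type I vHCs and at 93.2, 144, 74.3 and 68.4 in type II vHCs, in replicates 1, 3, 4 and 5. Type II was higher in 4 of 4 libraries and the groups did not overlap (type I minus type II −1.69 ± 0.355, 3.22-fold, edgeR adjusted p = 0.0012). The type I level was highest in replicate 3, and without it the difference was −2.03. Thinned to 1000 UMIs, 3.94% of 1728 type I and 12.8% of 211 type II vHCs had a B2m UMI.

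H2-D1 was higher in type I. It stood at 74.7, 55.4, 45.8 and 34.8 CPM in type I and at 27.95, 28.4, 26.999 and 19.0 in type II vHCs, again without overlap (1.08 ± 0.325, 2.12-fold, edgeR adjusted p = 0.024). This call was not kept without replicate 1 (0.96, adjusted p = 0.051) or replicate 3 (1.17, adjusted p = 0.13). H2-K1 (27.4 ± 8.2 against 22.0 ± 3.3 CPM, 0.39 ± 0.35) and Tapbp (33.3 ± 12.6 against 49.5 ± 9.7, −0.45 ± 0.303) were not called, with 95% intervals of −0.29 to 1.08 and −1.04 to 0.15. Of 4 class I genes tested, 1 was thus called in each direction, against 15.7% of 7599 genes called in either direction. A further 64 vHCs of no named type had 88.9 ± 91.4 CPM of B2m. In the cochlea, outer hair cells (OHCs, 78 cells, n = 4) had 80.5 ± 43.4 CPM of H2-D1 and 13.4 ± 20.1 of B2m, and inner hair cells (IHCs, 35 cells in 2 libraries) 10.1 ± 14.3 and 6.73 ± 9.52, from 3 to 19 UMIs a value and with no test.

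cHCs and vHCs were compared directly. B2m was 9.33 ± 11.5 CPM in cHCs and 38.3 ± 16.4 in vHCs, and the fit gave −1.71 ± 0.59 (cochlea minus vestibule, 3.27-fold, edgeR adjusted p = 0.033). The counts of 0 in cHC replicates 1 and 4 allow up to 38.9 and 28.6 CPM, within the range of the vHC libraries (26.3 to 61.8). B2m passed the low-count filter of this comparison through the vHC libraries. H2-K1 (−1.12 ± 0.541), H2-D1 (−0.25 ± 0.339) and Tapbp (−0.20 ± 0.363) were not called, so that 1 of 4 genes was called, against 29.5% of 7647 genes. The B2m call was lost without cochlear replicate 3 (−2.10, adjusted p = 0.11), cochlear replicate 4 (−1.45, adjusted p = 0.088) or vestibular replicate 3 (−1.25, adjusted p = 0.084), and with less than 10% mitochondrial UMIs the difference was −0.41 (adjusted p = 0.79). With the 9 genes and the other listed genes among the clustering genes it changed sign, to 1.98 (edgeR adjusted p = 0.071). The cHCs are 78 OHCs, 40 IHCs and 32 cells of no named type, while the 72 mixed cells, which carry 4 of 4 IHC markers, were left out. The vHCs are mostly type I, the type with less B2m, and the depth behind the cochlear value is 9 UMIs.

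Of 18 other listed genes of the class I pathway, 6 passed the filter in the cochlea and 3 of these were lower in cHCs than in supporting cells, with none higher, near the 43.2% of all genes called in either direction. In the vestibule 6 of 8 were lower in vHCs and none higher, against 58.3% of all genes. The medians were −1.58 and −1.15 on the log2 scale. Psme1, a subunit of the PA28 activator of the immunoproteasome, was 1.15 ± 2.31 CPM in cHCs and 74.0 ± 15.4 in cochlear supporting cells. H2-T23, which encodes the nonclassical molecule Qa-1, was 10.2 ± 11.1 against 102 ± 35.4 CPM in the cochlea and 12.5 ± 6.12 against 139 ± 40.0 in the vestibule (edgeR adjusted p = 9.4e-06 and 8.8e-11). In the cochlea Psme1 and H2-T23 passed the filter through the supporting cells.

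Of the class II pathway list, 1 of 3 genes tested was higher and 1 lower in cHCs, and 2 of 7 were higher and 1 lower in vHCs, against the same 43.2% and 58.3% of all genes. The lower one was H2-DMb1, a chain of the class II peptide editor, which had no UMI in cHCs against 28.2 ± 5.91 CPM in cochlear supporting cells, and 3 UMIs in vHCs against 23.3 ± 4.53 CPM in vestibular supporting cells. In both organs H2-DMb1 passed the filter through the supporting cells. Of 10 listed interferon response genes, 2 of 4 tested were called in the cochlea, against 43.2% of all genes, both lower in cHCs, and Bst2, which tethers virus particles to the cell surface, was the larger at 11.1 ± 9.64 against 245 ± 172 CPM. In the vestibule 3 of 4 were lower in vHCs and 1 was higher: Ifi27l2a was 49.7 ± 22.6 against 393 ± 71.5 CPM, while Ifit1, an interferon-induced RNA-binding protein, was 71.0 ± 16.9 in vHCs and 13.7 ± 2.52 in supporting cells (edgeR adjusted p = 5.8e-07). Ifit1 was also higher in type I than in type II vHCs, 78.9 ± 17.1 against 22.9 ± 16.8 CPM (1.98 ± 0.333, edgeR adjusted p = 1e-04), as was Psme1, 35.3 ± 6.104 against 6.37 ± 5.68 (2.62 ± 0.461, edgeR adjusted p = 1.8e-04). These were the only genes called of 6 class I pathway and 3 interferon response genes tested between the types, and 0 of 5 class II pathway genes were called by edgeR, where over all genes 1923 had an unadjusted p under 0.05, 1194 were called and DESeq2 called 1089. Between the organs, 2 of 6 class I pathway genes, 2 of 5 class II pathway genes and 1 of 3 interferon genes were called in HCs, all lower in cHCs, which is near the 29.5% of all genes called. Tap2, the partner subunit of Tap1, was 3.24 ± 6.49 CPM in cHCs (1 UMI) and 27.001 ± 3.69 in vHCs, Psme1 was 1.15 ± 2.31 against 30.3 ± 5.89, H2-DMa, which pairs with H2-DMb1, was 7.44 ± 6.71 against 35.7 ± 6.87, and Ifit1 was 26.1 ± 8.76 against 71.0 ± 16.9. Tap2 and Psme1, with 1 and 2 UMIs in cHCs, passed the filter through the vHCs.

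Class II message came mostly from a small part of the cells. Macrophage-like, monocyte-like and B lineage-like cells together were 2.3% to 8.82% of the cells of a cochlear library and held 52.0% to 81.2% of its UMIs of the 4 class II genes. In the vestibule they were 1.73% to 11.6% of the cells and held 70.3% to 92.0%. In B lineage-like cells, Cd74 was 6357 ± 1062 CPM in the cochlea (n = 3) and 4774 ± 3889 in the vestibule. HCs held almost none: 4 class II UMIs were found in 150 cHCs and 64 in 2003 vHCs, and Cd74 was 1.73 ± 3.46 and 2.80 ± 3.30 CPM. H2-Ab1 and H2-Eb1 had no UMI in cHCs, which allows up to 4.04 CPM. The share of cells with Cd74, 2.0% of cHCs and 1.30% of vHCs, was at the level of cochlear T or NK-like cells (2.37% of 253, median depth 1848 UMIs), which do not make class II.

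Cochlear macrophage-like cells carried about 3-fold more class II message than vestibular ones, but the libraries overlapped and no gene of the 4 was called. Cd74 was 1295, 4475, 6103 and 8360 CPM in cochlear replicates 1, 3, 4 and 5, and 252, 4174, 758 and 910 in the vestibular ones. Vestibular replicate 3 thus lay within the cochlear range, and cochlear replicate 1 near the vestibular ones. The log2 difference was 1.66 ± 0.712 (interval 0.26 to 3.05, unadjusted p = 0.037, edgeR adjusted p = 0.48). H2-Aa (1869 ± 979 against 543 ± 707 CPM), H2-Ab1 (1132 ± 599 against 307 ± 425) and H2-Eb1 (1357 ± 851 against 359 ± 501) differed by 1.601 ± 0.735, 1.602 ± 0.708 and 1.69 ± 0.783, with unadjusted p of 0.049, 0.042 and 0.051.

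The differences of the class I genes were smaller, at 0.68 ± 0.238 for H2-K1, 0.65 ± 0.217 for H2-D1 and 0.40 ± 0.319 for B2m, and none was called by edgeR (adjusted p = 0.27, 0.25 and 0.77). In all, 0 of 7 genes tested were called, against 1.27% of 1103 genes (14 genes, with 107 at an unadjusted p under 0.05). The median log2 difference was 1.63 for the class II genes, 0.65 for the class I genes and 0.02 over all genes. Leaving out vestibular replicate 3 gave 2.85, 2.92 and 3.13 for Cd74, H2-Aa and H2-Ab1, all then called (edgeR adjusted p = 0.043, 0.048 and 0.033). With the 9 genes and the other listed genes among the clustering genes, all 4 class II genes were called, with Cd74 at 3.33. There the genes tested helped to decide which cells were macrophage-like, so these calls give no independent support. By DESeq2, 20 of the 1103 genes were called and Cd74 was not (adjusted p = 0.68). Of the pathway lists, 0 of 8 class I, 0 of 4 class II and 0 of 3 interferon genes were called by edgeR.

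**Figure D3:**
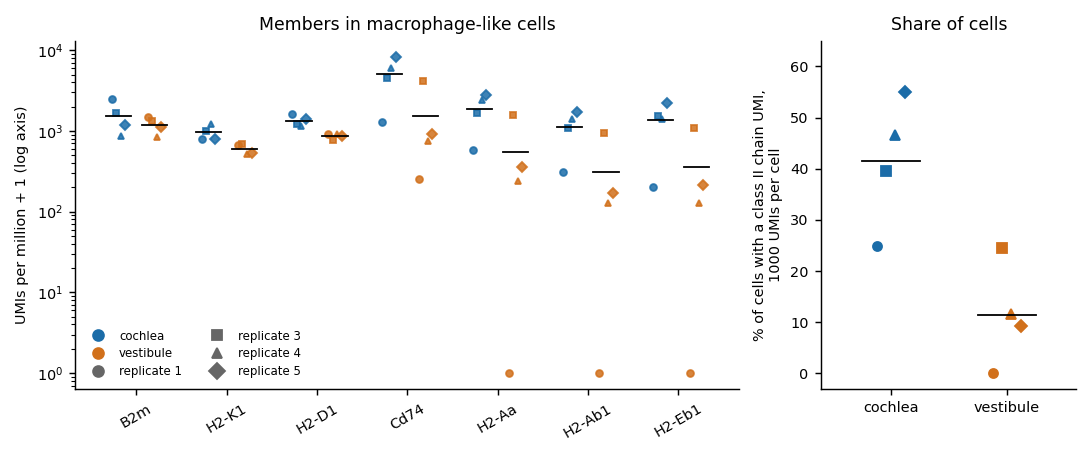
Left, levels of 7 genes in macrophage-like cells in CPM plus 1, on a log axis, with 1 point per library and a bar for the mean; right, percent of these cells with a UMI of a class II chain at 1000 UMIs per cell. Cd74 spans 1295 to 8360 CPM in the cochlea and 252 to 4174 in the vestibule, where replicate 3 stands above the other libraries, and the shares do not overlap.

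The share of macrophage-like cells with a class II chain was compared as a single value per library. Thinned to 1000 UMIs, 25%, 39.6%, 46.7% and 55.0% of the cochlear cells and 0%, 24.6%, 11.5% and 9.30% of the vestibular cells had a UMI of H2-Aa, H2-Ab1 or H2-Eb1. The mean was 41.6% ± 12.7 (SD, n = 4) against 11.4% ± 10.1, and the groups did not overlap (difference 30.2 percentage points, exact permutation test, two-sided p = 0.029, the smallest that 4 against 4 can give). Without thinning, the shares gave 29.1 points and p = 0.057 by the same exact test. The vestibular replicate at 0% holds 9 cells and the cochlear replicate at 25% holds 12, so that both depend on very few cells.

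Within macrophage-like cells the class II genes were often found together, but not always. Of 312 cochlear cells, thinned, 45.5% had none of the 4 class II genes and 28.2% had all 4, and of 230 vestibular cells 66.5% had none and 8.70% all 4, the rest having 1 to 3. Most of these cells come from replicate 3 (265 and 126), in which 27.55% and 14.3% had all 4. In vestibular replicates 1, 4 and 5 all 4 were found in 0%, 1.92% and 2.33% of the cells. B2m was found, thinned, in 75.6% and 69.1% of the same cells and in 79.1% and 81.4% of T or NK-like cells.

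The class II level followed the macrophage subclusters, which were formed without the 9 genes. In the cochlea, a subcluster of 150 cells led by Cx3cr1, the fractalkine receptor, had Cd74 at 8971 ± 2188 CPM (n = 3), and the 4 class II genes were themselves among its leading genes. A subcluster of 100 cells led by Lyve1 and Cd209f, markers of macrophages along vessels, had 4127 ± 801 (n = 2), with libraries of 3560 and 4693 against 6697 to 11062. A subcluster of 62 cells led by P2ry12 and Tmem119, genes known from microglia, had 358 ± 133 (n = 2), and 90% of it came from replicate 3. H2-Aa, H2-Ab1 and H2-Eb1 gave the same order, with 2952 ± 437, 2016 ± 763 and 21.1 ± 29.8 CPM for H2-Aa. B2m ran the other way, at 1098 ± 318, 1424 ± 239 and 2308 ± 259 CPM. The P2ry12 subcluster thus had the lowest class II and the highest B2m of the 3.

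In the vestibule, a subcluster of 110 cells led by Ccl12 and Lyve1 had Cd74 at 5974, 1172 and 1228 CPM in replicates 3, 4 and 5. One of 120 cells led by Pf4 and Folr2 had 121, 1600, 131 and 344 in replicates 1, 3, 4 and 5. The first was above the second in each library they share, and in both subclusters replicate 3 was the highest. The subclusters were formed in each organ on its own and are not matched between organs. Monocyte-like cells, with Ccr2 among their leading genes, had Cd74 at 5067 ± 624 CPM in the cochlea (n = 2) and 2376 ± 1659 in the vestibule (n = 3). Subclusters led by Mmp12, left unnamed because no marker of the list was among their leading genes, had 568 ± 433 CPM in the cochlea (59 cells) and 2332 ± 1483 in the vestibule (24 cells).

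**Figure D4:**
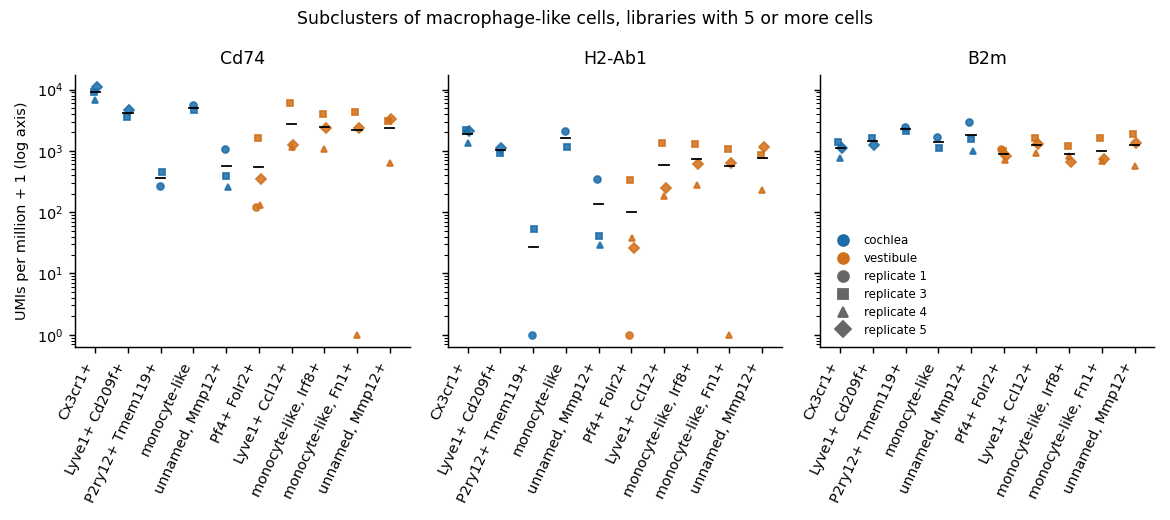
Levels of Cd74, H2-Ab1 and B2m in CPM plus 1, on a log axis, in the macrophage-like, monocyte-like and unnamed subclusters, with 1 point per library of 5 or more cells and a bar for the mean. In the cochlea Cd74 falls from the Cx3cr1 to the Lyve1 to the P2ry12 subcluster, and B2m does not fall with it.

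Cd74 was found in cochlear supporting cells and was almost absent from vestibular ones. It stood at 49.2, 54.2, 42.3 and 32.9 CPM in cochlear and at 5.46, 5.64, 0 and 0 in vestibular replicates 1, 3, 4 and 5. The groups were far apart (3.70 ± 0.452, 13.0-fold, edgeR adjusted p = 2.1e-06), and the call held in the 17 alternatives in which Cd74 was tested, from 3.29 to 4.59. With both organs clustered together, which left 117, 485, 86 and 138 cochlear supporting cells, Cd74 did not pass the filter. The 4 class I genes tested were not called between the organs in supporting cells (H2-K1 −0.47 ± 0.201, B2m −0.37 ± 0.243, H2-D1 −0.19 ± 0.213, Tapbp −0.09 ± 0.286), so that 1 of 5 genes was called, against 29.3% of 8023 genes. Of the 5 genes tested, Cd74 was also the only one whose difference between HCs and supporting cells differed between organs (−3.68 ± 1.17, edgeR adjusted p = 0.029). In both fits Cd74 passed the filter through cochlear supporting cells. It had 7 UMIs in 550 vestibular supporting cells and 34 in 2003 vHCs, and did not pass the filter between these. Both sizes therefore depend on very few vestibular molecules.

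The supporting cells with class II were spread over the libraries, and their class II message was set beside macrophage message. A class II UMI was found in 30 of 181, 92 of 607, 27 of 124 and 19 of 182 cochlear supporting cells. Of the 374 class II UMIs, 7.49% lay in cells with a UMI of the macrophage markers C1qa, C1qb, C1qc or Csf1r, or of Tyrobp or Lyz2, which are on no marker list. Of all 1094 cochlear supporting cells, 96 (8.78%) had such a UMI. Leaving out all such cells gave a difference of 3.81. Macrophage markers summed to 0.985 to 16.2 CPM in the cochlear and 0 to 22.6 in the vestibular supporting cells, with 6 of 8 and 4 of 8 detected. The most class II UMIs in a cell were 12, against 278 in a cochlear macrophage-like cell. In cochlear B lineage-like cells, 21.9% of the class II UMIs lay in cells with a UMI of C1qa, C1qb, C1qc, Csf1r, Tyrobp or Lyz2. A low share therefore does not tell the source, and the part of free RNA or of doublets was not tested.

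Among the 3 cochlear supporting cell clusters, Cd74 was concentrated in one. It is led by Pcdh17, Agr2, Agr3 and Hey2 and holds 272 cells of high depth (median 7268 UMIs), and Cd74 was 78.9, 100, 61.2 and 65.1 CPM in its replicates 1, 3, 4 and 5. It had a Cd74 UMI in 93 cells, 34.2%, or 7.35% thinned, with H2-Aa in 32, H2-Ab1 in 30 and H2-Eb1 in 10 cells. H2-DMb1 of the peptide editor was found in 72 of these cells and Ciita, the class II co-activator, in 3, while C1qa, a macrophage marker, had 4 UMIs in all. These counts were not thinned. Over all supporting cells H2-DMb1 was 28.2 ± 5.91 CPM in the cochlea and 23.3 ± 4.53 in the vestibule, so it did not follow Cd74 between the organs. The other cochlear clusters, of 691 and 131 cells, had Cd74 at 16.1 ± 6.14 and 5.57 ± 6.86 CPM (n = 4), found in 30 and 4 cells, and the vestibular ones, of 455 and 95 cells, had 7 and 0 UMIs of it. Thinned, the shares in these 4 were 1.59%, 0%, 1.10% and 0%, so that the first cluster stood above them also at equal depth. As this cluster also carries 4 of 8 markers of nonsensory epithelium beside 4 of 8 of supporting cells, it is named here by its leading genes.

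**Figure D5:**
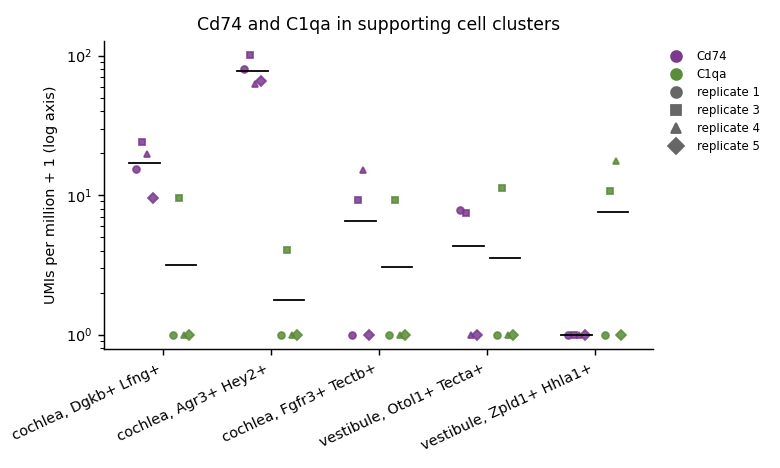
Levels of Cd74 and of the macrophage marker C1qa in CPM plus 1, on a log axis, in each supporting cell cluster of both organs, with 1 point per library and a bar for the mean. Cd74 of the cochlear cluster named Agr3+ Hey2+ lies above that of the other clusters in every library, and its C1qa is at 0 in all libraries but replicate 3.

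Of the listed genes in supporting cells, 3 of 9 class I pathway genes were called between the organs, all lower in the cochlea, and 1 of 4 class II pathway genes, Lgmn, an endosomal protease, which was 34.5 ± 9.25 against 134 ± 19.9 CPM. Both counts are near the 29.3% of all genes called. Of 5 interferon response genes 4 were called, 3 higher and 1 lower in the cochlea, against the same 29.3%. Bst2 was 245 ± 172 against 39.1 ± 16.3 CPM, Isg15 36.7 ± 25.7 against 9.84 ± 10.6, and Ifit1 41.6 ± 36.3 against 13.7 ± 2.52 (edgeR adjusted p = 2.5e-05, 0.027 and 0.024).

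In stromal-like cells the class II genes were called between the organs. Cd74 was 0, 204, 93.2 and 103 CPM in cochlear and 9.64, 16.7, 10.3 and 6.42 in vestibular replicates 1, 3, 4 and 5, so that cochlear replicate 1 lay below the vestibular libraries and the others above. The fit gave 3.09 ± 0.412 for Cd74, 3.59 ± 0.464 for H2-Ab1 and 3.88 ± 0.391 for H2-Eb1 (edgeR adjusted p = 9.8e-06, 6.4e-06 and 2.9e-07), while H2-Aa did not pass the filter and 0 of 5 class I genes were called by edgeR (B2m −0.56 ± 0.275, unadjusted p = 0.055). H2-Ab1 and H2-Eb1 passed the filter through the cochlear libraries, where they were high, so the direction of their calls was largely set by it. Cochlear replicate 1 held 2 class II UMIs, and all vestibular stromal-like cells held 157, of which 94 were of Cd74. In all, 3 of 8 genes tested were called, against 24.1% of 9763 genes (3285 at an unadjusted p under 0.05). With the replicate number as a block 4 of 8 were called, with Cd74 at 3.115.

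This class II signal in stromal-like cells moved with macrophage message. Of the 1749 class II UMIs of cochlear stromal-like cells, 28 of 1308 cells held 88.0%. In all, 82.4% lay in cells that also had a UMI of C1qa, C1qb, C1qc, Csf1r, Tyrobp or Lyz2. All 8 macrophage markers of the list were detected. The macrophage markers summed to 57.7 to 180 CPM in the cochlear and 8.83 to 41.96 in the vestibular libraries. Leaving out the cells with a UMI of C1qa, C1qb, C1qc, Csf1r, Tyrobp or Lyz2 left 5 of the 9 genes tested, against 8 in the main fit. None of these 5 was called by edgeR, and the difference in Cd74 was 1.07 (adjusted p = 0.24). A gene that did not pass the filter could not be called. Ctss, cathepsin S, which is abundant in macrophages, also differed (26.3 ± 15.7 against 2.94 ± 2.26 CPM). It was 1 of 2 class II pathway genes called of 7, both higher in the cochlea, against 24.1% of all genes called. The listed class I pathway genes gave 2 higher and 3 lower of 14, with H2-T23 at 92.0 ± 69.1 against 187 ± 59.3 CPM, and the interferon genes 1 higher and 4 lower of 9, both set against 24.1% of all genes, with Irf7 at 11.5 ± 4.31 against 40.9 ± 16.1 and Ifi27l2a at 337 ± 124 against 884 ± 377.

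In vestibular T or NK-like cells the class II values of replicate 3 stood alone, with Cd74 at 972 CPM against 15.7 and 0 in replicates 4 and 5. There, 3 of 105 cells held 96.9% of the 785 class II UMIs. In cochlear erythroid-like cells, 97.8% of the class II UMIs lay in cells with a UMI of C1qa, C1qb, C1qc, Csf1r, Tyrobp or Lyz2. These values are given as measured, and the part of doublets or of free RNA in them was not tested.

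The genes whose level across 25 populations of both organs (15699 genes with enough counts) followed the class I genes most closely were H2-Q4 (Pearson r 0.950), Psme1 (0.925), Ankrd44 (0.914), H2-T23 (0.909) and Psmb8 (0.905), an immunoproteasome subunit. For the class II genes they were Irf8 (0.966), H2-DMb2 (0.943), Scimp (0.936), Ly86 (0.930) and BC035044 (0.921). The populations share libraries and differ in depth, so these values describe likeness and carry no test, and reads shared between H2-Q4 and the heavy chain genes may raise the first.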

How the data were processed

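Counts of UMIs per gene and barcode were deposited by the authors, made with Cell Ranger (6.1.2 by their notes; the headers of replicates 1 and 2 name another version) on mm10, without normalization. Groups are the labels' organ. The design text and the protocol differ on the number of mice and replicates. Barcodes under 200 genes or 1000 UMIs, or with 25% or more of mitochondrial UMIs, were dropped here, and the 17696 cells left were clustered per organ in Seurat 5.3.0 (R 4.3.3) with 2000 variable genes, 30 principal components and resolution 1, HCs and macrophages again at 0.5. A name needed 3 enriched markers (in 25% of cells, log2 fold of 1), and 3123 cells stayed unnamed. No doublet caller was run. UMIs summed per library and population were tested with edgeR 4.0.16 (TMM, filterByExpr, quasi-likelihood test, Benjamini-Hochberg adjustment at 0.05), with DESeq2 1.42.0 as an alternative. The test was run on simulated data first. The share of cells with class II was tested with an exact permutation test. Intervals of log2 differences are normal 95% intervals from the fit's SE and hold the spread between libraries, while limits at a count of 0 (3 UMIs) cover counting error only.

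The 9 genes and the lists were chosen with earlier results of these data known. Named were all 9 genes, up to 4 listed pathway genes per comparison with the largest change among those called, and per kind the 5 most alike across populations. Populations of 1 library come from the same mice (HCs against supporting cells, type I against type II), and their deviations correlated by 0.09 to 0.27 per library. Between organs, same-numbered libraries correlated by 0.10 to 0.14 in stromal-like cells and by 0.066 to 0.315 in supporting cells. The range was 0.029 to 0.335 in macrophage-like cells and 0.026 to 0.091 in HCs. The planned test of endothelial-like cells was not run, since no cluster met the rule. Libraries are pools of mice, so p-values measure the spread between pools.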

Additional observations from a re-analysis of the deposited data

Results flagged for a closer look

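Among 62 groups of 4 libraries checked, 5 held a library far from the other 3, where chance alone flags about 1 group in 20. In cochlear supporting cells, Tapbp was 144.4 CPM in replicate 1 against 55.49, 55.92 and 58.09. In vestibular macrophage-like cells, Cd74 was 4174 CPM in replicate 3 against 251.7, 758.1 and 909.9. In type I vHCs, B2m was 51.03 CPM in replicate 3 against 14.95, 16.47 and 20.01. In type II vHCs, H2-D1 was 19.0 CPM in replicate 5 against 26.999, 27.95 and 28.44, and Tapbp was 35.01 CPM in replicate 3 against 53.19, 54.0 and 55.9. Replicate 3, which holds the most cells, is the far library in 3 of these 5, and what sets it apart was not tested. The difference in Cd74 between HCs and supporting cells differed between the organs by −3.682 on the log2 scale (edgeR adjusted p = 0.02893), where Cd74 had 34 UMIs in 2003 vHCs and 7 in 550 vestibular supporting cells.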

How the results depend on the processing

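Of 355 values of single genes under alternative settings, 331 kept their direction and their side of the threshold, 13 lost the call, 8 gained it and 3 changed sign. The values are of genes called in the main analysis and of all genes tested in macrophage-like cells, where none was called. An uncalled gene that stayed uncalled counts as kept. Fits in which a gene did not pass the filter are not among the 355, so calls lost that way are not counted. The sign changed with the 9 genes and the other listed genes among the variable genes, to 1.984 for B2m between the organs' HCs. Between cHCs and supporting cells it changed to 0.6203 for B2m and 1.979 for H2-K1, where 2 cells with many class I UMIs joined the cHCs. With less than 10% mitochondrial UMIs, of the 9 genes 0 were called between the organs' HCs (1 in the main analysis), 2 between cHCs and supporting cells (5), 1 between type I and type II vHCs (2) and 1 between the organs' stromal-like cells (3). With the 9 genes and the other listed genes among the variable genes the counts were 2 for the organs' HCs, 1 for cHCs against supporting cells and 4 for macrophage-like cells (0). In that setting the genes tested helped to form the groups, so its counts give no independent support. In supporting cells 2 genes were called (1) with library size only, with no filter on low counts, with the replicate block and with both organs clustered together, where Cd74 was not among them since it was not tested. The replicate block gave 1 gene, Cd74, in macrophage-like cells, and between types and between HCs and supporting cells it changed no call of the 9 genes. In stromal-like cells 8 genes were tested in the main analysis and 5 with less than 10% mitochondrial UMIs. With the mean of replicates 1 and 2, 1 of 6 tested was called, and with clustering resolution 2, 1 of 5. Without cells holding a UMI of C1qa, C1qb, C1qc, Csf1r, Tyrobp or Lyz2, 0 of 5 were called. Leaving out 1 library gave 0 to 2 genes for the organs' HCs, 1 to 2 for supporting cells, 0 to 3 for macrophage-like cells and 1 to 2 for type I against type II vHCs. The difference in the share of macrophage-like cells with class II (30.21 points) was 29.09 without thinning, 31.39 with Cd74 counted too and 28.29 with less than 10% mitochondrial UMIs (exact permutation p = 0.057 each), 30.21 with the replicate block (p = 0.125, the smallest 4 pairs allow) and 25.74 to 35.74 without 1 library (p = 0.057 in all but that without cochlear replicate 1). Over all genes, calls between the organs' HCs went from 2258 to 1201, between supporting cells from 2354 to 1114 and between cHCs and supporting cells from 2901 to 1181 with less than 10% mitochondrial UMIs. With no filter on low counts they went from 2354 to 3582 in supporting cells, from 2901 to 4473 between cHCs and supporting cells and from 14 to 112 in macrophage-like cells. In macrophage-like cells the block gave 24, the 9 and the other listed genes among the variable genes 27 and leaving out 1 library 2 to 31. Adding the unnamed cells of clusters that also held macrophage-like cells (chosen after seeing the data) gave 9. In the cochlea this raised replicate 1 from 12 to 13 cells and replicate 3 from 265 to 268, so most of the Mmp12 subcluster stayed out. Type I against type II vHCs went from 1194 to 717 without replicate 3. Beyond the settings named, the cause of these shifts was not tested. cHC values rest on 150 cells, and low counts limit Tap1 and the class II chains in most populations.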
